A study of Mus musculus with 7 samples.

Results

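Serotonin receptor genes were examined in single nuclei of the posterolateral cortical amygdala (plCoA), an olfactory area of the mouse brain. The 10 receptor genes, of 32285 genes in the matrices, were taken by their symbols: Htr1a, Htr1b, Htr1d, Htr1f, Htr2a, Htr2c, Htr3a, Htr4, Htr5a and Htr7. They were chosen from earlier results of these nuclei, namely their level in each cell class, the contrast of glutamatergic with GABAergic neurons, and the contrast of the anterior with the posterior domain in both neuron types. Those 3 kinds of value are therefore given as descriptions with no test. All mice were wild-type male C57BL6J aged 8 weeks, and tissue came from the anterior (aplCoA) or the posterior domain (pplCoA). Per the study's methods, mice were pooled within a library and kept alone and deprived of sensory stimuli before dissection, and nuclei were sorted by flow cytometry. There were 3 replicates of each domain in 7 libraries, since aplCoA replicate 1 was run as 2 libraries, which were summed.

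Serotonin reaches the forebrain in axons of the raphe nuclei and acts on a large receptor family. The Htr1 and Htr5 receptors couple to inhibitory G proteins (Gi/o) that lower cyclic AMP and open potassium channels. The Htr2 receptors couple to Gq and phospholipase C, Htr4 and Htr7 couple to Gs and raise cyclic AMP, and Htr3a forms a cation channel that serotonin opens directly. In cortex-like tissue Htr3a is a known mark of interneurons from the caudal ganglionic eminence, which also carry Adarb2. Lhx6 instead marks interneurons from the medial eminence.

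The genes differ greatly in structure, which sets how many UMIs (unique molecular identifiers, each marking a captured RNA molecule) a nucleus can yield when introns are counted. In the GENCODE annotation of GRCm38, Htr2c spans chrX:146962513-147197277 on the plus strand, 235 kb in 8 merged exons that fill 3.97% of it. Htr1f spans 181 kb of chromosome 16 on the minus strand, and Htr4 spans 172 kb. Htr1a, on chromosome 13, is 4.48 kb long with 1 exon. Levels are therefore compared between cells for the same gene and never between genes.

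RefSeq start-site windows, 250 bases before to 50 after a start in GRCm38.p6, were found for 8 of the 10 genes. Windows of 3 are shown because Htr2c carried the domain difference described below, Htr2a stood out among interneuron subclasses, and Htr1d differed widely between them. Capitals mark matches to GGGCGG, the core of a GC box, and to TGACAG, the core bound by Meis and related homeodomain factors, on either strand. The windows are chrX:146962263-146962562 for Htr2c, chr14:74640624-74640923 for Htr2a and chr4:136423274-136423573 for the first of the Htr1d starts, all on the plus strand.
Htr2c: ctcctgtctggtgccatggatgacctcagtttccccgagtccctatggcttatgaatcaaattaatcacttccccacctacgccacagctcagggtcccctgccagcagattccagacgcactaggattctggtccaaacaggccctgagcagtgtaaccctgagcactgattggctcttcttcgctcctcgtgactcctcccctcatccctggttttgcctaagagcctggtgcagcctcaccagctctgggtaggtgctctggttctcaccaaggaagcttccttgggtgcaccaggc
Htr2a: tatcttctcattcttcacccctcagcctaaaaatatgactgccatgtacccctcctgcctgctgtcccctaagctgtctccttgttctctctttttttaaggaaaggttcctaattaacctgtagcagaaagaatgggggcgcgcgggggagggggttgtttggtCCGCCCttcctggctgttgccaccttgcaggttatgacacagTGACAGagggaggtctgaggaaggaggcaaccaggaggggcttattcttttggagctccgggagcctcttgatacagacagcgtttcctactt
Htr1d: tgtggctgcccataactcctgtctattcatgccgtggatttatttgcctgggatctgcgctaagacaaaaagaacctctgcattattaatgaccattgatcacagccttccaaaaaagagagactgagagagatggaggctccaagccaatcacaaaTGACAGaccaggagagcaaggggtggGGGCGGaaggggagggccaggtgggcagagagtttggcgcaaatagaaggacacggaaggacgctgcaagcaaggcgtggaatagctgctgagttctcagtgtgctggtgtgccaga
The Htr2c window held no match to any of the 4 motifs searched on both strands, namely TATAAA for the TATA box, CANNTG for the E-box and the motifs in capitals. Of all 32851 promoter windows of the same length, 13.6% held the TATA motif, 35.7% the GC box core, 72.3% the E-box and 19.2% the Meis core. The Htr2a window and the Htr1d window shown each held 1 GC box core and 1 Meis core, and the latter 2 E-box matches. The window of the other Htr1d start, chr4:136424362-136424661, held 4 GC box cores, 1 E-box and no Meis core. A match describes letters and not a bound site, and the motifs were chosen with the results known.

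After filtering, 46376 nuclei with at least 1000 genes remained, 4028 to 9705 per library, with median UMI counts of 5153 to 6752.5 and library totals of 50812605 to 129624583 UMIs. Pairs of libraries shared 3 to 29 barcodes, at most 0.406% of nuclei. Clusters were assigned to classes from marker genes, giving 19706 glutamatergic-like nuclei (hereafter glutamatergic neurons), 5045 GABAergic-like nuclei (GABAergic neurons) and smaller non-neuronal-like classes. The marker Slc17a7 stood at 211 CPM (UMIs of a gene scaled to a fixed total per class and replicate) over all glutamatergic nuclei and at 10.7 CPM over GABAergic nuclei. The 10 receptor genes were left out of clustering. A CPM value here is the gene's summed UMIs over the summed UMIs of a class in 1 replicate. It cannot tell fewer expressing nuclei from less RNA per nucleus.

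Of the 10 receptors, 8 had a higher mean in GABAergic than in glutamatergic neurons and 2, Htr1f and Htr1b, a higher mean in glutamatergic neurons. Among the Gq-coupled receptors, Htr2c averaged 568 ± 86.4 CPM in GABAergic and 138 ± 72.3 CPM in glutamatergic neurons (SD, n = 6 replicates), a 4.13-fold difference in means. Htr2a, the main excitatory serotonin receptor of cortex, averaged 52.6 ± 7.54 and 16.2 ± 4.68 CPM in the same order. No fold is given for Htr2a, since its glutamatergic mean was below its level of 17.5 CPM in barcodes with under 100 UMIs, which hold mostly free RNA. Both genes were higher in GABAergic neurons in 6 of 6 replicates. Htr7, which is coupled to Gs, averaged 72.8 ± 8.88 against 23.6 ± 7.76 CPM, 3.08-fold higher in GABAergic neurons. Htr4, the other Gs-coupled receptor, averaged 85.9 ± 17.8 against 58.8 ± 19.8 CPM, a smaller 1.46-fold difference that was still in the same direction in all 6 replicates.

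The channel subunit Htr3a was seen mainly in GABAergic neurons. It averaged 11.5 ± 2.04 CPM in GABAergic neurons and 0.125 ± 0.0923 CPM in glutamatergic neurons, where 1 replicate was at 0. No fold is given, since its glutamatergic level was below its level in free RNA, 6.31 CPM. Among Gi/o-coupled receptors, Htr1f averaged 151 ± 17.4 CPM in glutamatergic and 93.7 ± 10.7 CPM in GABAergic neurons, higher in glutamatergic neurons in 6 of 6 replicates. The axonal autoreceptor and heteroreceptor gene Htr1b averaged 4.06 ± 2.75 against 2.00 ± 0.587 CPM, with glutamatergic neurons higher in 5 of 6 replicates. Htr1d, a close relative of Htr1b, went the other way, with 3.01 ± 0.904 CPM in GABAergic and 0.475 ± 0.379 CPM in glutamatergic neurons. Htr1a, the receptor that hyperpolarises many forebrain neurons, averaged 1.49 ± 0.813 CPM in GABAergic and 0.609 ± 0.243 CPM in glutamatergic neurons, and the 2 ranges overlapped. Htr5a averaged 2.44 ± 0.299 and 1.58 ± 0.337 CPM. In the barcodes that hold mostly free RNA, Htr1a (3.24 CPM), Htr1b (4.85 CPM) and Htr5a (2.98 CPM) were above their means in both neuron types, and the part of free RNA in these low values was not tested.

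To compare shares of nuclei across depths, each nucleus was thinned to 2000 UMIs, which left out 29 GABAergic nuclei, 23 glutamatergic nuclei and 384 microglia with fewer. Htr2c was then detected in 39.1 ± 7.50% of GABAergic neurons, 16.3 ± 7.76% of glutamatergic neurons and 1.20 ± 0.892% of microglia (SD, n = 6), a class that should lack it. Median depths before thinning were 7936, 12345 and 3472 UMIs in that order. Without thinning, the shares were 52.7%, 34.7% and 2.12%. Htr1f was detected in 21.7% of glutamatergic neurons, 13.9% of GABAergic neurons and 1.41% of microglia at the thinned depth. Htr3a was detected in 2.46% of GABAergic neurons, but its share of 0.0261% in glutamatergic neurons was below the 0.0664% in microglia and is read as background.

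In the 7 larger non-neuronal classes (astrocytes, oligodendrocyte precursors, newly formed and mature oligodendrocytes, microglia, vascular leptomeningeal cells and arachnoid barrier cells), mean Htr2c lay between 3.90 and 7.43 CPM. The level of Htr2c in free RNA was 108 CPM over the 7 libraries (69.6 to 205 CPM), and the part of free RNA in these low counts was not tested. Htr1f was uneven across the same classes, from 6.70 ± 1.68 CPM in microglia to 19.5 ± 6.48 CPM in astrocytes and 32.3 ± 5.95 CPM in oligodendrocyte precursors. Htr1b averaged 8.20 ± 4.85 CPM in arachnoid barrier cells, against 0.180 to 0.968 CPM in the other 6, and that mean lay above those of glutamatergic and GABAergic neurons. It rests on 40 UMIs. The aplCoA mean of 8.01 ± 4.87 CPM (SD, n = 3) lay within the free RNA of the aplCoA libraries, 5.93 to 11.3 CPM. The pplCoA mean lay above the free RNA of the pplCoA libraries, 1.70 to 3.53 CPM. It rests on few nuclei, as few as 50 in a pplCoA replicate, and the part of free RNA was not tested. Htr1f reached 238 ± 99.1 CPM in a small Cajal-Retzius-like class of 148 nuclei, in which 42.1 ± 32.2 CPM of Htr2c was counted. No UMI of Htr1d was found in 3642 oligodendrocyte precursors, which allows a share of up to 0.0824% of nuclei with a UMI, and none of Htr1a in 1854 vascular leptomeningeal cells, which allows up to 0.162%.

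**Figure D1:**
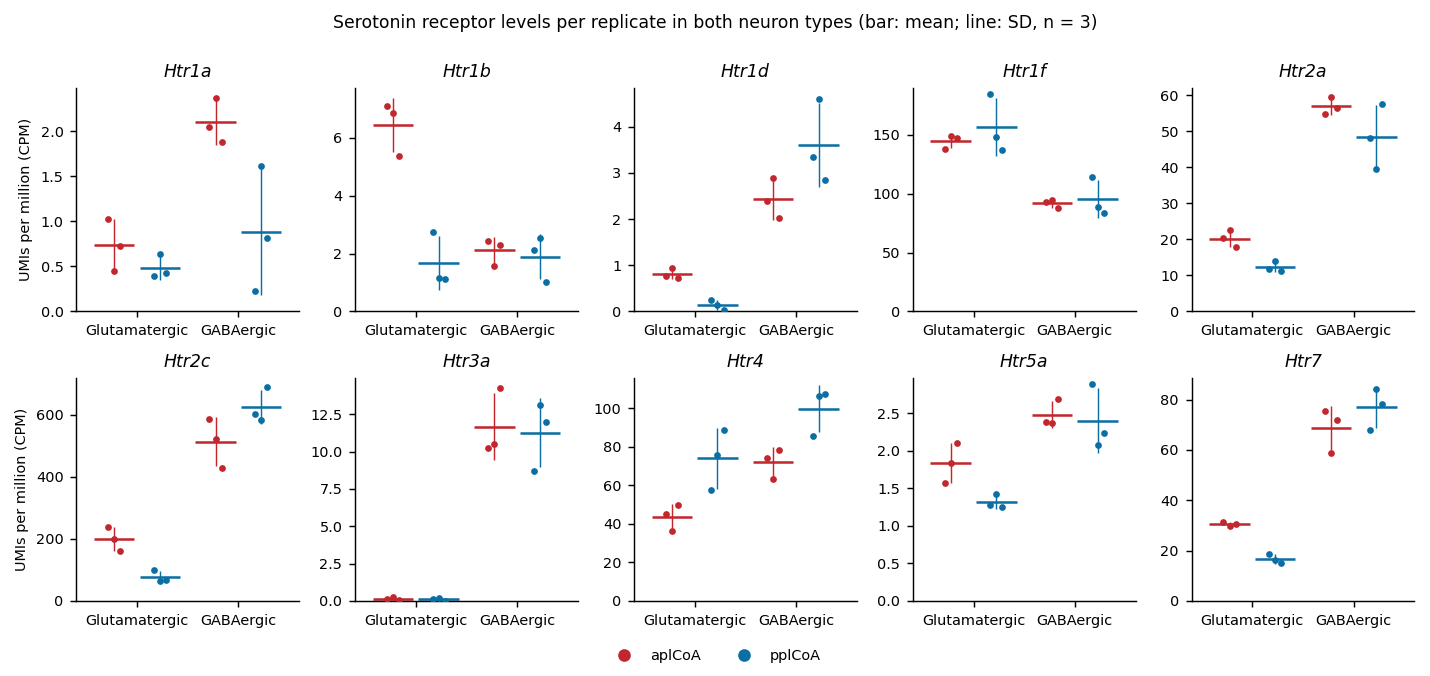
Level of each receptor gene (CPM, linear axis from 0, 1 panel per gene) in aplCoA (red) and pplCoA (blue) glutamatergic and GABAergic neurons, with points for replicates, bars for means and lines for the SD (n = 3). In glutamatergic neurons Htr2c lies at 160 CPM or more in aplCoA and at 98.2 CPM or less in pplCoA, whereas Htr4 is lower in aplCoA in both neuron types. The glutamatergic Htr2c and Htr2a directions turn when the 7 of 14 clusters that can be compared are weighted equally, with overlapping ranges. Pooled Htr2c reaches at most 215 CPM in those 7 clusters and up to 649 CPM in the clusters left out.

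The 2 domains were compared within each neuron type, the contrast that had singled out these genes. In glutamatergic neurons Htr2c stood at 238, 198 and 160 CPM in the aplCoA replicates and at 98.2, 64.2 and 67.3 CPM in the pplCoA replicates. All aplCoA values were above all pplCoA values. The fitted difference was 1.29 ± 0.179 on the log2 scale (edgeR estimate ± SE, aplCoA minus pplCoA). In the 7 of 14 clusters with at least 10 nuclei in every replicate, equal weights gave a log2 ratio of -0.45. Its ranges overlapped, and the same 7 clusters without equal weights gave a CPM ratio of 2.04. The clusters with the highest Htr2c were not among these 7. Differences under equal weights, here and below, are log2 ratios of mean CPM and not refits. In free RNA Htr2c stood at 138, 205, 126 and 108 CPM in the 4 aplCoA libraries and at 119, 77.1 and 69.6 CPM in the 3 pplCoA libraries. Each pplCoA glutamatergic value was thus below the free RNA of its own library, while the 7 larger non-neuronal classes of the same libraries averaged 7.43 CPM or less. The part of free RNA in the domain difference was not tested. In GABAergic neurons the same gene stood at 587, 522 and 429 CPM in aplCoA and at 603, 581 and 687 CPM in pplCoA. These ranges overlapped, and the fitted difference was -0.34 ± 0.101, which moved to -0.033 with clusters weighted equally. The glutamatergic gap was also seen in the thinned shares, 22.8% of nuclei in aplCoA against 9.80% in pplCoA, and the GABAergic shares were 33.5% against 44.8%.

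Htr7 and Htr2a were also higher in aplCoA glutamatergic neurons. Htr7 stood at 31.5, 29.9 and 30.4 CPM against 18.6, 16.3 and 15.0 CPM in pplCoA, a difference of 0.79 ± 0.087 on the log2 scale. Htr2a stood at 20.2, 22.5 and 17.9 CPM against 11.7, 13.8 and 11.1 CPM, a difference of 0.64 ± 0.123 that turned to -0.53 with clusters weighted equally. Neither pair of ranges overlapped. With clusters weighted equally, the Htr7 ratio of means went from 1.84 to 1.23, and the ranges of both genes then overlapped. In free RNA Htr7 stood at 16.2 to 20.4 CPM over the aplCoA libraries and at 11.9 to 14.9 CPM over the pplCoA libraries. Htr2a stood there at 16.5 to 21.0 CPM and at 18.4 CPM or less in the same order, and in each pplCoA library it was above the glutamatergic value. The 7 larger non-neuronal classes averaged 0.420 to 1.05 CPM of Htr7 and 0.589 to 2.79 CPM of Htr2a, and the part of free RNA in both differences was not tested. In GABAergic neurons both genes overlapped between domains, with Htr7 at 75.4, 58.7 and 72.0 CPM against 67.9, 84.4 and 78.4 CPM, and fitted differences of -0.19 ± 0.106 for Htr7 and 0.17 ± 0.119 for Htr2a, the latter turning to -0.18 with clusters weighted equally.

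Htr4 was lower in aplCoA in both neuron types. In glutamatergic neurons it stood at 45.1, 36.3 and 49.6 CPM in aplCoA and at 57.5, 75.6 and 88.9 CPM in pplCoA, a difference of -0.84 ± 0.168 on the log2 scale. In GABAergic neurons it stood at 74.2, 63.4 and 78.4 CPM against 85.6, 106 and 107 CPM, a difference of -0.50 ± 0.105. The domains did not overlap in either type. With clusters weighted equally, the glutamatergic Htr4 ratio of means went from 0.590 to 0.756, with overlapping ranges. The GABAergic ratio went from 0.722 to 0.758, without overlap. In free RNA Htr4 stood at 21.4 to 36.7 CPM over the aplCoA libraries and at 29.4 to 37.4 CPM over the pplCoA libraries. The part of free RNA in both Htr4 differences was not tested. Htr1f had overlapping ranges and fitted differences of -0.20 ± 0.104 in glutamatergic and -0.13 ± 0.105 in GABAergic neurons. The first turned to 0.026 with clusters weighted equally, and the second to 0.092 with no doublet removal and to 0.022 with neuron types split by UMIs.

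The other 5 receptors did not pass the filter of UMIs in at least 10% of nuclei in either type. Htr1b stood at 7.11, 6.87 and 5.39 CPM in aplCoA and at 2.74, 1.16 and 1.10 CPM in pplCoA glutamatergic neurons. Htr1d stood at 0.763, 0.941 and 0.725 CPM against 0.241, 0.145 and 0.0356 CPM. Both were higher in every aplCoA replicate. In barcodes with under 100 UMIs, Htr1b stood at 5.93 to 11.3 CPM over the 4 aplCoA libraries and at 1.70 to 3.53 CPM over the 3 pplCoA libraries, the same gap at a like or higher level, and its part in the Htr1b difference was not tested. Htr1d stood at 1.00 to 2.44 CPM in free RNA over the 7 libraries, above each of its glutamatergic values, and its part in the Htr1d values was not tested. Htr5a stood at 1.57, 1.84 and 2.10 CPM against 1.28, 1.42 and 1.25 CPM. Htr1a and Htr3a overlapped between domains there, and Htr3a was 0 in pplCoA replicate 3. In GABAergic neurons Htr1a was the only 1 of these 5 whose domains did not overlap, with 2.04, 2.37 and 1.88 CPM in aplCoA and 0.222, 1.61 and 0.814 CPM in pplCoA.

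In all, 7 of the 10 receptors did not overlap between domains in glutamatergic neurons, 6 of them higher and 1 lower in aplCoA, and 2 of 10 did not overlap in GABAergic neurons. Over all genes that passed the filter, 43.4% did not overlap in glutamatergic neurons and 28.3% in GABAergic neurons, and among the 5 receptors that passed it the counts were 4 and 1. The genes were chosen on this contrast, so nothing is read from these shares.

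In the non-neuronal classes, domains were tested because that contrast had not chosen the genes. Only Htr1f in newly formed oligodendrocytes and in oligodendrocyte precursors passed the filter. The differences were -0.59 ± 0.542 (adjusted p = 0.817) and -0.01 ± 0.177 (adjusted p = 0.988) on the log2 scale by edgeR's quasi-likelihood test with Benjamini-Hochberg adjustment over all genes. Neither was called at an adjusted p under 0.05, where 1.32% of all gene and class pairs were called, and 0 had an unadjusted p under 0.05. The edgeR likelihood ratio test and DESeq2 also called 0. With at least 10 UMIs in 3 replicates, 9 receptor and class pairs could be tested and 0 passed, either adjusted or at an unadjusted p under 0.05.

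Glutamatergic neurons were next divided by their vesicular glutamate transporter, with 10588 nuclei that held at least 2 UMIs of Slc17a7 (VGluT1) and none of Slc17a6 (VGluT2), and 1417 the reverse. VGluT2-only nuclei were few in pplCoA, with 96, 14 and 7 nuclei in its replicates against 810, 144 and 346 in aplCoA. Of 7 receptors tested, 4 were higher and 1 lower in VGluT2-only nuclei, in a fit with the replicate as a block, over genes with a mean of at least 10 UMIs per sum, in which 37.3% of all genes were called. Htr1b averaged 13.7 ± 5.25 CPM in VGluT2-only and 1.55 ± 0.494 CPM in VGluT1-only nuclei. The difference was 2.86 ± 0.189 on the log2 scale (edgeR adjusted p = 9.15e-12), in the same direction in 6 of 6 replicates. In pplCoA replicates 2 and 3 the VGluT2-only value of Htr1b rests on 1 UMI each. Without those replicates the difference was 2.88 ± 0.184 (edgeR adjusted p = 3.27e-09). The VGluT1-only mean of Htr1b lay below its 4.85 CPM in free RNA, whose part was not tested. Htr2a averaged 32.6 ± 10.4 against 14.5 ± 2.52 CPM, a difference of 1.06 ± 0.116 (edgeR adjusted p = 5.95e-08) seen in 6 of 6 replicates. Its VGluT1-only mean also lay below its level in free RNA, 17.5 CPM, whose part was not tested. Htr7 averaged 46.9 ± 19.1 against 19.2 ± 3.96 CPM, a difference of 1.14 ± 0.102 (edgeR adjusted p = 2.25e-09) seen in 5 of 6.

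Htr2c followed the same direction less evenly. In VGluT2-only nuclei it stood at 509, 407 and 429 CPM in aplCoA and at 421, 29.0 and 25.0 CPM in pplCoA, and in VGluT1-only nuclei at 133, 131 and 62.9 CPM and at 53.6, 60.7 and 59.4 CPM. The 2 low values came from the pplCoA replicates with 14 and 7 VGluT2-only nuclei. The VGluT1-only mean of 83.4 CPM lay below the 108 CPM of Htr2c in free RNA, whose part was not tested. The difference was 1.86 ± 0.237 on the log2 scale (edgeR adjusted p = 7.48e-07), higher in 4 of 6 replicates, and 2.17 ± 0.159 (edgeR adjusted p = 1.74e-08) without those 2 replicates. DESeq2 did not call it (adjusted p = 0.153), while its adjusted p under the other alternatives ran from 1.89e-11 to 0.000406. Htr1f was lower in VGluT2-only nuclei, 85.6 ± 32.9 against 167 ± 19.6 CPM, by -1.17 ± 0.118 (edgeR adjusted p = 1.62e-08) in 6 of 6 replicates. Htr4 and Htr5a were not called, with differences of -0.04 ± 0.121 (edgeR adjusted p = 0.855) and 0.49 ± 0.294 (edgeR adjusted p = 0.207).

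**Figure D2:**
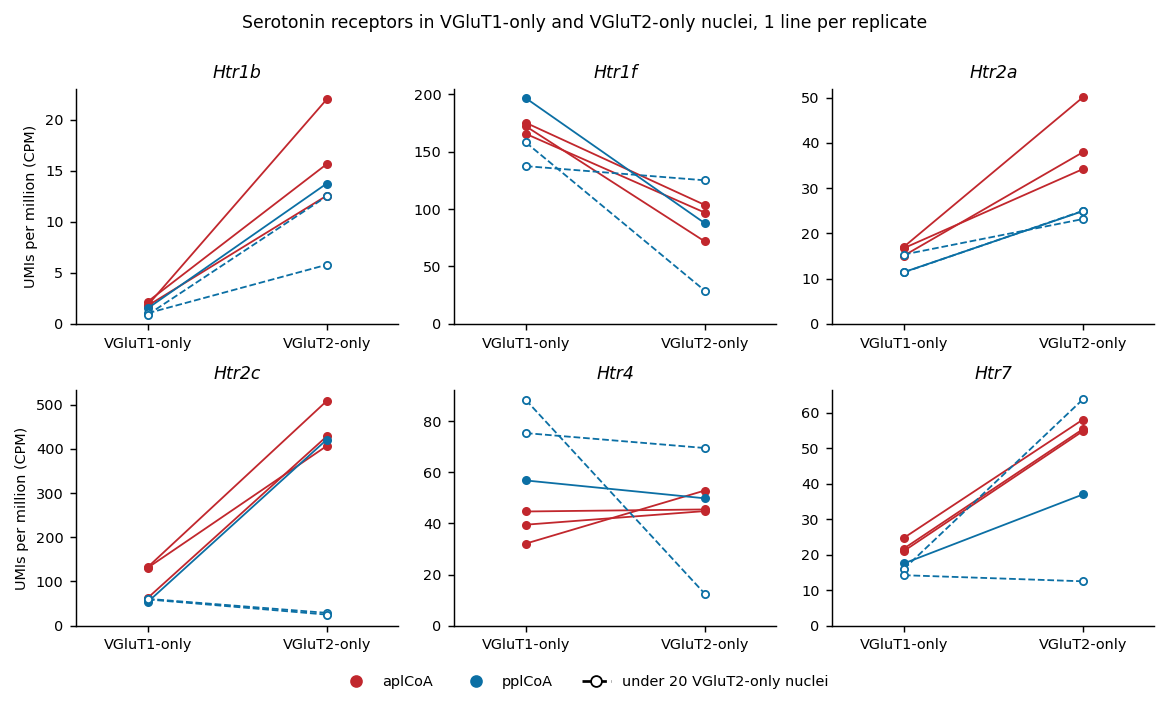
Level of 6 receptor genes (CPM, linear axis from 0) in VGluT1-only and VGluT2-only nuclei, with 1 line per replicate in red for aplCoA and blue for pplCoA, dashed with open points where under 20 VGluT2-only nuclei were counted. For Htr2c, 4 replicates lie at 407 CPM or more in VGluT2-only nuclei and the 2 pplCoA replicates with 14 and 7 such nuclei lie at 29.0 and 25.0 CPM.

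Within VGluT1-only nuclei alone the domain values were nearer each other for Htr2c, 109 ± 39.8 CPM in aplCoA against 57.9 ± 3.76 CPM in pplCoA, a ratio of 1.88 (description, n = 3 each). The ratio over all glutamatergic neurons was 2.60. For Htr4 the gap was not smaller, with 38.8 ± 6.31 against 73.5 ± 15.8 CPM, a ratio of 0.528 beside 0.590 over all glutamatergic neurons. Htr7 stood at 22.5 ± 1.97 against 15.9 ± 1.66 CPM.

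The GABAergic neurons were divided by developmental lineage, with 3083 nuclei in which Adarb2 and 270 in which Lhx6 was the lineage gene with the most UMIs (at least 2). Htr3a averaged 20.4 ± 3.40 CPM in Adarb2 nuclei, with 483 UMIs over the 6 replicates, and 0.768 ± 1.34 CPM in Lhx6 nuclei, with 2 UMIs. It passed the filter only through the Adarb2 nuclei, so its values are given without a test. Of the other 5 receptors that passed, 1 was called higher and 2 lower in Adarb2 nuclei, and 22.1% of all genes were called in the same fit. Htr7 was higher by 0.49 ± 0.143 on the log2 scale (edgeR adjusted p = 0.0171). The Htr7 call was lost without pplCoA replicate 1 (adjusted p = 0.114) and, with the direction turned, at a marker minimum of 3 UMIs (-0.06 on the log2 scale, adjusted p = 0.908), while its lowest adjusted p over the alternatives was 0.000209. Htr1f and Htr2c were lower in Adarb2 nuclei, 67.4 ± 10.2 against 125 ± 42.4 CPM and 479 ± 114 against 751 ± 207 CPM, with differences of -0.96 ± 0.121 (edgeR adjusted p = 3.70e-06) and -0.73 ± 0.154 (edgeR adjusted p = 0.00138). Htr2a (edgeR adjusted p = 0.247) and Htr4 (edgeR adjusted p = 0.0680) were not called. Htr1d was too low to test, with 9.59 ± 7.28 CPM in Lhx6 and 0.250 ± 0.215 CPM in Adarb2 nuclei, higher in Lhx6 nuclei in 6 of 6 replicates. The division was incomplete, since 462 of 651 Sst nuclei fell in no lineage, 114 in the Lhx6 lineage and 74 in the Adarb2 lineage. Over all Sst nuclei, Htr1f averaged 42.4 ± 10.8 CPM, below the Adarb2 mean, and Htr7 101 ± 21.0 CPM, above the Adarb2 mean of 86.4 CPM. Both lay on the opposite side from the Lhx6 nuclei. Htr2c, at 662 ± 137 CPM in Sst nuclei, lay above the Adarb2 mean as in Lhx6 nuclei.

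Subclasses were then formed from the marker genes Sst (651 nuclei), Vip (586), Lamp5 (492) and Cck (210), and each was compared with the mean log level of the other 3. The peptide gene Sst marks dendrite-targeting interneurons, and Vip marks interneurons that target other interneurons. Lamp5 marks neurogliaform-type interneurons and Cck marks a basket type. Htr1f, Htr2a, Htr2c, Htr4 and Htr7 passed the filter. In these fits 29.6% of all genes were called for Sst, 26.3% for Vip, 28.7% for Lamp5 and 9.73% for Cck.

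Lamp5 nuclei had little Htr2c and much Htr2a. Htr2c stood at 80.8, 36.7 and 48.7 CPM in aplCoA and at 103, 49.3 and 96.3 CPM in pplCoA Lamp5 nuclei, below every value of the other subclasses. Its mean was 69.2 ± 28.0 CPM against 710 ± 77.6 CPM for the other 3, a difference of -3.38 ± 0.215 on the log2 scale (edgeR adjusted p = 5.73e-15). The Lamp5 mean lay below the 108 CPM of Htr2c in free RNA, whose part was not tested. Htr2a averaged 107 ± 28.1 CPM against 25.5 ± 8.66 CPM, a difference of 2.44 ± 0.173 (edgeR adjusted p = 9.34e-14), and Htr1f 126 ± 19.0 against 56.2 ± 18.7 CPM, a difference of 1.17 ± 0.140 (edgeR adjusted p = 2.29e-08). Htr4 was lower by -1.26 ± 0.159 (edgeR adjusted p = 6.65e-08). Htr7 was not called (edgeR adjusted p = 0.0803).

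Vip nuclei had little Htr2a and much Htr4. Htr2a averaged 3.39 ± 2.94 CPM against 60.2 ± 14.2 CPM and was lower in 6 of 6 replicates. It had 17 UMIs in Vip nuclei and passed the filter through the other subclasses, so it is given without a test, and this low level enters the mean of the others in the Htr2a fits of Lamp5, Sst and Cck. Htr4 stood at 201, 169 and 215 CPM in aplCoA and at 233, 232 and 221 CPM in pplCoA. It was higher than the mean of the other subclasses in 6 of 6 replicates, by 1.80 ± 0.123 on the log2 scale (edgeR adjusted p = 5.67e-14). Htr1f was lower by -0.92 ± 0.180 (edgeR adjusted p = 0.000124). Htr2c was called higher by 0.65 ± 0.166 (edgeR adjusted p = 0.00292), but its mean CPM of 534 ± 209 was below the 555 ± 90.4 of the others and it exceeded them in 2 of 6 replicates, since the fit averages the log levels of the others, Lamp5 included. The Htr1f and Htr2c calls were lost at a marker minimum of 1 UMI (adjusted p = 0.196 and 0.156). Over the other alternatives the adjusted p ran from 1.08e-05 to 0.00404 for Htr1f and from 6.53e-05 to 0.0305 for Htr2c. Htr7 was not called (edgeR adjusted p = 0.757).

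Sst nuclei averaged 662 ± 137 CPM of Htr2c against 512 ± 88.2 CPM for the mean of the other 3, of which Cck was higher. The fit, which averages the log levels of the others, Lamp5 included, gave a difference of 1.06 ± 0.156 on the log2 scale (edgeR adjusted p = 1.12e-06), and Sst exceeded the mean of the others in 5 of 6 replicates. Htr7 averaged 101 ± 21.0 against 78.0 ± 6.84 CPM, higher by 0.40 ± 0.0992 (edgeR adjusted p = 0.00164) in 6 of 6. Htr1f was lower by -0.74 ± 0.153 (edgeR adjusted p = 0.000250). Htr2a and Htr4 were called higher, by 1.06 ± 0.188 (edgeR adjusted p = 2.49e-05) and 0.44 ± 0.127 (edgeR adjusted p = 0.00714), yet their mean CPM lay close to those of the other subclasses, 46.7 against 45.7 and 109.8 against 109.6. Leaving out aplCoA replicate 1 (adjusted p = 0.102) or pplCoA replicate 3 (adjusted p = 0.0612) ended the Htr4 call, and its lowest adjusted p was 0.00383.

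Cck nuclei had the highest mean of Htr2c among these subclasses, 934 ± 259 CPM. The difference was 1.68 ± 0.165 on the log2 scale (edgeR adjusted p = 2.26e-09), in 6 of 6 replicates. Htr4 stood between 37.8 and 62.9 CPM in 5 replicates and at 207 CPM in pplCoA replicate 2, a value that rests on 10 UMIs in 7 Cck nuclei. Htr4 and Htr7 were lower, by -0.98 ± 0.192 (edgeR adjusted p = 0.000387) and -0.72 ± 0.147 (edgeR adjusted p = 0.000646). Htr1f (edgeR adjusted p = 0.0918) and Htr2a (edgeR adjusted p = 0.987) were not called.

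Htr3a and Htr1d, both under the filter, differed widely between subclasses and are given without a test. Htr3a stood at 44.8 ± 12.8 CPM in Vip and 28.0 ± 18.5 CPM in Cck nuclei, against 1.06 ± 0.954 CPM in Sst and 1.16 ± 1.03 CPM in Lamp5 nuclei. Htr1d stood at 10.7 ± 3.82 CPM in Sst nuclei, 0.209 ± 0.511 CPM in Vip nuclei and 0.437 ± 1.07 CPM in Cck nuclei, and had no UMI in 492 Lamp5 nuclei, which allows a share of up to 0.610%.

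**Figure D3:**
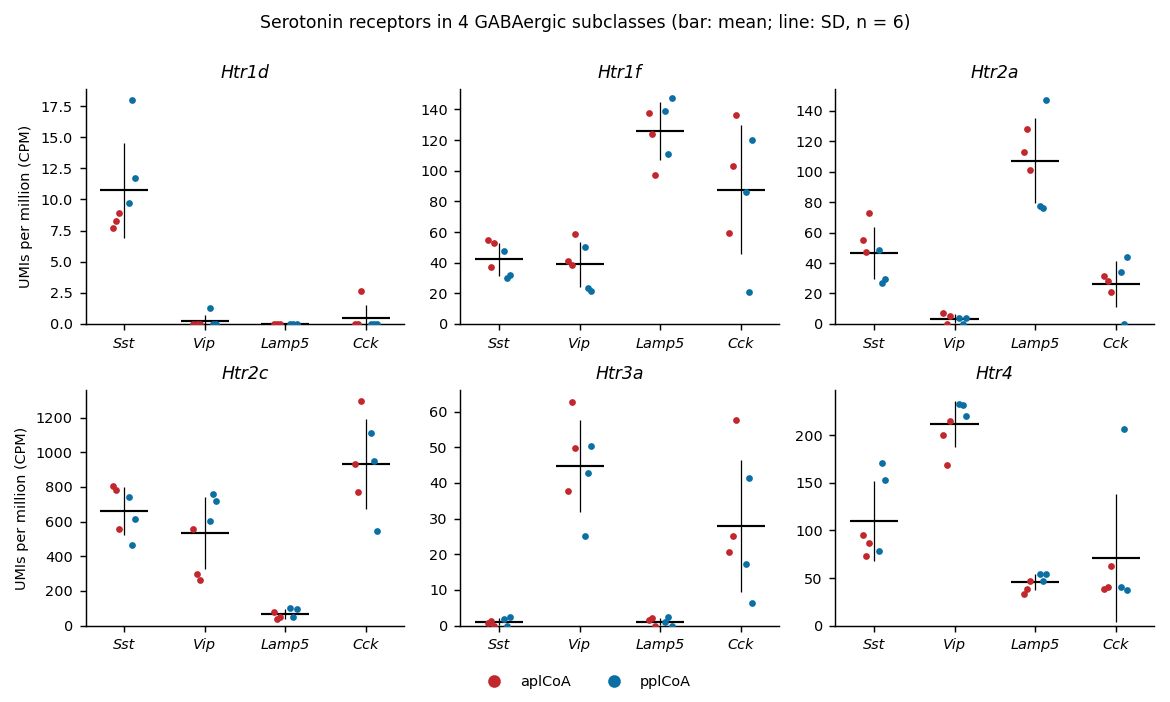
Level of 6 receptor genes (CPM, linear axis from 0) in Sst, Vip, Lamp5 and Cck nuclei, with a point per replicate (red aplCoA, blue pplCoA), a bar for the mean and a line for the SD (n = 6). Lamp5 nuclei are lowest for Htr2c (mean 69.2 CPM) and highest for Htr2a (107 CPM), and Vip nuclei are lowest for Htr2a (3.39 CPM) and highest for Htr4 (212 CPM).

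The neuron types were made of clusters whose receptor levels differed widely and whose shares differed between domains. Clusters are called here by their leading genes. Among 14 glutamatergic clusters, Htr2c was at 649 CPM in the Grik3 cluster, 528 in the Vwa5b1 cluster, 477 in the Ebf1 cluster and 404 in the Meis1 cluster, against 6.35 in the Pld5 cluster. The Ccbe1 cluster, at 215 CPM, made up 19.6 ± 13.6% of glutamatergic nuclei in aplCoA and 1.10 ± 0.399% in pplCoA (SD, n = 3). The Vwa5b1 cluster made up 15.1 ± 2.17% against 2.91 ± 3.87%. The Meis1 cluster made up 12.9 ± 1.24% against 1.36 ± 1.50%, and the Ebf1 cluster 4.99 ± 2.45% against 0.496 ± 0.859%. The Pld5 cluster went the other way, with 0.106 ± 0.0790% in aplCoA and 15.1 ± 10.6% in pplCoA, as did the Grik3 cluster with 0.624 ± 0.831% and 4.37 ± 2.35%. Htr4 was at 111 CPM in the Pld5 cluster, but cluster levels pool both domains and this cluster came nearly all from pplCoA, where Htr4 was higher over all glutamatergic neurons. Etv1 was among the leading genes of the Grik3 cluster and Fign among those of the Ccbe1 cluster, genes the study used as markers of areas bordering plCoA, and the location of these clusters was not examined here. Without both, a choice made after the data were seen, Htr2c in glutamatergic neurons averaged 194 ± 39.9 CPM in aplCoA and 53.6 ± 27.3 CPM in pplCoA, with no overlap and a ratio of 3.61.

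Among 6 GABAergic clusters, Htr2c was at 949 CPM in the Vip cluster and 887 CPM in the Moxd1 cluster, against 98.3 CPM in the Hs3st5 cluster and 6.47 CPM in the Mctp2 cluster. The Vip cluster made up 20.5 ± 4.42% of GABAergic nuclei in aplCoA and 36.8 ± 5.82% in pplCoA, and the Hs3st5 cluster 22.4 ± 3.72% against 7.76 ± 4.18%. The Moxd1 cluster stood at 29.2 ± 2.23% and 30.3 ± 2.32%. Htr1f was 595 CPM in the Mctp2 cluster, against 33.6 to 149 CPM in the other 5.

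**Figure D4:**
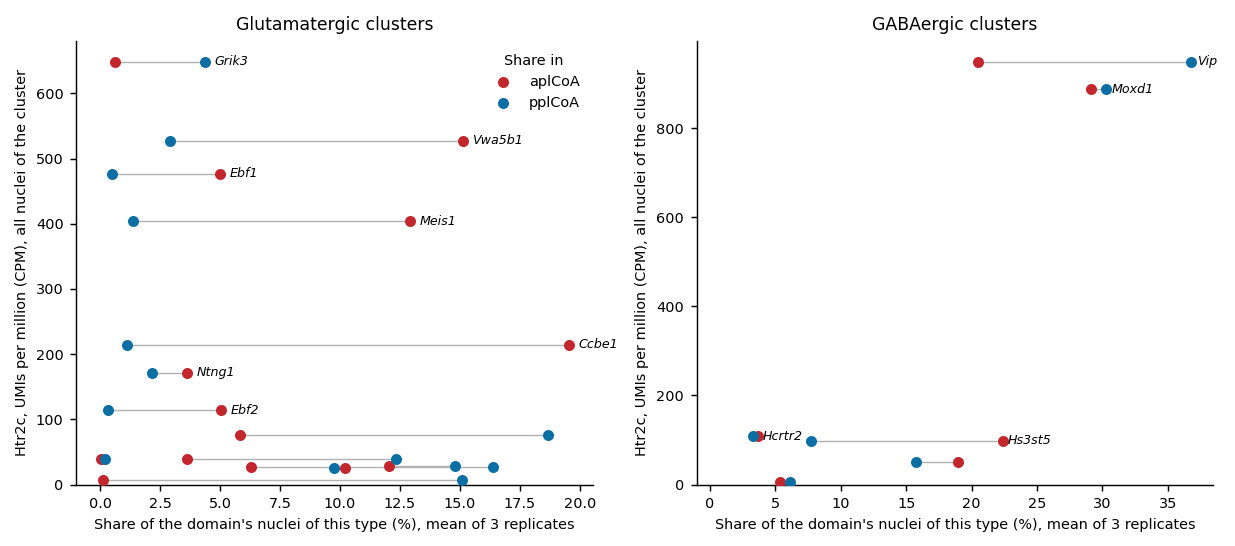
The horizontal axis is the share of each cluster among the nuclei of its neuron type (percent, mean of 3 replicates) in aplCoA (red) and pplCoA (blue), joined by a line. The vertical axis is the cluster's Htr2c level over all its nuclei (CPM, linear from 0). In glutamatergic neurons the Vwa5b1, Meis1 and Ebf1 clusters, at 404 to 528 CPM, have larger shares in aplCoA. The Grik3 cluster, the highest at 649 CPM, and the Pld5 cluster, at 6.35 CPM, have larger shares in pplCoA.

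Giving every cluster the same weight changed the Htr2c values. In the 7 of 14 glutamatergic clusters with at least 10 nuclei in every replicate (12863 of 19706 nuclei), Htr2c averaged 77.5 ± 12.1 CPM in aplCoA and 106 ± 24.8 CPM in pplCoA, a ratio of 0.730 with overlapping ranges. It was higher in aplCoA in 3 of 7 clusters. The same 7 clusters without equal weights gave a ratio of 2.04, and all glutamatergic nuclei 2.60. In GABAergic neurons, where all 6 clusters entered, the ratio went from 0.822 to 0.978, with 340 ± 35.2 against 348 ± 21.4 CPM.

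Htr4 kept its direction under equal weights. In GABAergic neurons it averaged 54.4 ± 3.79 CPM in aplCoA and 71.7 ± 5.44 CPM in pplCoA with no overlap, a ratio of 0.758, and it was lower in aplCoA in 5 of 6 clusters. In glutamatergic neurons it was lower in 6 of 7 clusters, with a ratio of 0.756 and overlapping ranges. The glutamatergic Htr7 ratio went from 1.84 to 1.23 with overlapping ranges, and Htr7 was higher in aplCoA in 3 of 7 clusters. Htr2a turned from 1.65 to 0.692, also with overlapping ranges and higher in aplCoA in 3 of 7. This comparison was added after the data were seen, and clusters with too few nuclei in some replicate could not enter it. The Grik3, Vwa5b1, Ebf1 and Meis1 clusters, the highest in Htr2c, were left out this way. The Meis1 cluster was also the highest in Htr2a, at 57.3 CPM. The glutamatergic clusters that entered reached at most 215 CPM of Htr2c, and the equal-weight values describe only them.

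Detection of pairs of receptors in the same nucleus was described after thinning to 5000 UMIs (18922 glutamatergic and 4110 GABAergic nuclei), as the observed share over the product of the separate shares. In glutamatergic neurons Htr2a and Htr7 met 1.71 times as often as the product (range 1.37 to 2.27 over 6 replicates), Htr2a and Htr2c 1.46 times, and Htr2c and Htr4 0.740 times. In GABAergic neurons Htr2c and Htr4 met 1.18 times as often (1.10 to 1.30), Htr2a and Htr4 0.682 times, and Htr2a and Htr7 0.974 times. Pairs of Htr2c and Htr4 thus lay above the product in 1 neuron type and below it in the other, and the nuclei of a replicate share their library.

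The genes most like each receptor were found by Pearson's r of mean log2(CPM + 1) across 14 cell groups among 14423 genes, a description with no test since the groups share libraries and neurons differ from other classes for most neuronal genes. The groups included the GABAergic lineages and the VGluT groups, which lie within the neuron classes, and the Meis2 lineage held 9 nuclei. Htr2a and Htr7 were nearest to each other (r = 0.987), followed by Rell2 and AI593442 for Htr2a and by Nell1os and Glra2 for Htr7. Among the subclasses, which did not enter, Vip nuclei held 3.39 CPM of Htr2a and 85.3 CPM of Htr7. Sst nuclei were called higher for both genes, Lamp5 nuclei higher for Htr2a only, and Cck nuclei lower for Htr7 only. For Htr2c the nearest genes were Sncb (0.989), Zfp385b and Glra2. For Htr3a they were Grpr, the receptor gene of gastrin-releasing peptide (0.987), C87487 and Abcb5, and for Htr4 Pak6 (0.988), March4 and Cyp4x1. For Htr1f they were Gm20063 (0.966), Trim46 and Wdr47. For Htr1b they were D430036J16Rik (0.945), Gm47405 and Esyt3. D430036J16Rik is annotated antisense to Htr1b and overlaps it, as Gm32335 does Htr3a, so telling the reads of each pair apart rests on strand. The study's methods name the 3' v3 chemistry setting of Cell Ranger, which counts reads in the sense of the gene.

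Other genes of serotonin signalling were tested between domains from a list of 49, none of them among the 10 receptors. In glutamatergic neurons 36 passed the filter, of which 5 were higher in aplCoA, 9 lower and 22 not called, beside 21.2% of all genes called. Plcb4, a phospholipase C downstream of Gq, averaged 39.9 ± 4.65 CPM in aplCoA and 9.99 ± 6.17 CPM in pplCoA, higher by 1.88 ± 0.336 on the log2 scale (edgeR adjusted p = 0.00777). The adenylyl cyclase genes Adcy1 (-0.95 ± 0.151, edgeR adjusted p = 0.00624), Adcy8 (-0.66 ± 0.103, edgeR adjusted p = 0.00596) and Adcy9 (-0.63 ± 0.127, edgeR adjusted p = 0.0115) were lower. The cyclases did not move one way, since Adcy2, named after its values were seen, was higher by 0.44 ± 0.128 (edgeR adjusted p = 0.0422), and Adcy3 (edgeR adjusted p = 0.929) and Adcy5 (edgeR adjusted p = 0.744) were not called. Gnas, which encodes the Gs alpha subunit, was higher by 0.63 ± 0.136 (edgeR adjusted p = 0.0143). The Gq-coupled receptor Htr2b averaged 17.4 ± 2.14 against 25.8 ± 3.86 CPM, lower by -0.65 ± 0.139 (edgeR adjusted p = 0.0141). By group, 5 of 10 tested Gs genes were called (2 higher), 3 of 8 Gi/o genes (1 higher), 2 of 8 Gq genes (1 higher) and 2 of 7 partner and editing genes (1 higher). The count of 14 called fell to 8 when aplCoA replicate 1 was left out, to 9 for aplCoA replicate 2, to 5 for pplCoA replicate 2 and to 6 for pplCoA replicate 3.

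In GABAergic neurons 35 of the 49 passed the filter, of which 1 was higher in aplCoA, 2 lower and 32 not called, beside 10.4% of all genes called. Htr2b averaged 19.7 ± 1.01 against 31.6 ± 5.10 CPM, lower by -0.70 ± 0.137 (edgeR adjusted p = 0.00678). Slc18a2, the vesicular monoamine transporter, averaged 12.6 ± 1.89 against 20.4 ± 3.05 CPM, lower by -0.70 ± 0.156 (edgeR adjusted p = 0.0116). Gna11, a Gq-class alpha subunit, was higher by 0.53 ± 0.146 (edgeR adjusted p = 0.0340). The count of 3 fell to 1 without aplCoA replicate 1. The median difference over the tested list was -0.02 on the log2 scale in glutamatergic and 0.02 in GABAergic neurons, beside 0.00 over all genes in both. On the opposite strand Htr2b overlaps Psmd1, Gnas overlaps Gm20721, Adcy8 overlaps Gm21798, Adcy2 overlaps Gm35161, Slc18a2 overlaps Gm29261 and Plcb4 overlaps Gm14210 and Gm14211, so their values rest on the same setting. Plcb4 also overlaps Gm14209 on its own strand.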

How the data were processed

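Nuclei of both domains were profiled by 10x 3' v3.1 sequencing. The authors aligned reads to mm10 with introns included and deposited unfiltered matrices of UMI counts per gene and barcode. The labels give Cell Ranger 5.0.0. Barcodes with at least 1000 genes were kept. Those far above the median in UMIs, those far above the upper quartile in mitochondrial or ribosomal share, and 4117 called doublets were removed. Nuclei were clustered in scanpy 1.11.5 (Leiden, resolution 1.0) without the 10 receptor genes. Clusters were named from marker lists, and a class needed at least 3 raised marker genes. The Meis1 and Ebf1 clusters had 2 raised glutamatergic markers. They were named glutamatergic because their VGluT level was above 100 CPM and over 10 times that of Gad1 and Gad2. UMIs were summed per replicate and class and tested with edgeR 4.0.16 (quasi-likelihood, TMM, adjusted p under 0.05) in R 4.3.3. The Benjamini-Hochberg adjustment ran over all genes with UMIs in at least 10% of nuclei of a domain. DESeq2 1.42.0 was an alternative. Splits of nuclei within a replicate were fitted with the replicate as a block, over genes with a mean of at least 10 UMIs per sum. Fits were tested on simulated data. Replicates are pools of mice, so p-values between domains describe the spread between pools. In fits with the replicate as a block, p-values describe how the difference within a pool varies across pools. Upper limits cover counting error only and rest on 3 counts. The members and gene lists were chosen with earlier results of these data known. All 10 receptors are named, pathway genes past the threshold by size of difference, at most 6 per neuron type, and the 3 genes nearest each receptor that reached 10 CPM. Alternatives covered the tool, normalization, filter, doublets, single libraries and leaving out each replicate.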

Additional observations from a re-analysis of the deposited data

Results flagged for a closer look

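Htr2c was counted at 108 CPM in barcodes with under 100 UMIs, which were left out of the cell classes and of every test, with 69.6 to 205 CPM over the 7 libraries. Htr1f was counted at 69.0 CPM in the same barcodes, with 52.5 to 95.7 CPM over the libraries. Both values lie above those of the non-neuronal classes tested between domains, and the origin of these UMIs was not tested. The 262 nuclei that fell in no class held Htr1f at a mean of 573 CPM over 6 replicates (SD 582), from 147 to 1711 CPM. The highest value came from the replicate with 10 such nuclei, aplCoA replicate 2.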

How the results depend on the processing

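Samples of the same replicate number deviated together with r of 0.08, -0.06 and 0.10 in glutamatergic and 0.01, -0.16 and -0.01 in GABAergic neurons. With 3 replicates per domain, these values cannot show whether the numbers pair the domains. With the replicate block, the Htr2c difference was 1.30 ± 0.096 in glutamatergic and -0.34 in GABAergic neurons on the log2 scale, 13 and 3 pathway genes were called, and 0 receptors in non-neuronal classes. Leaving out each replicate, Htr2c ran from 1.17 to 1.50 in glutamatergic and from -0.44 to -0.22 in GABAergic neurons. Weighting clusters equally was an alternative added after seeing the data, and it gives log2 ratios of mean CPM and not refits. It turned the glutamatergic differences of Htr2c to -0.45, of Htr2a to -0.53 and of Htr1f to 0.026, over 7 of 14 clusters. Those 7 leave out the clusters highest in Htr2c and in Htr2a. The GABAergic difference of Htr2a turned to -0.18, and GABAergic Htr2c moved to -0.033. Glutamatergic Htr7 and Htr4 kept their directions, with CPM ratios of 1.23 and 0.756 and overlapping ranges. Leaving out the Grik3 and Ccbe1 clusters, also added after seeing the data, gave 1.85 for glutamatergic Htr2c. GABAergic Htr1f turned to 0.092 with no doublet removal, to 0.022 with neuron types split by UMIs and ran from -0.21 to 0.034 when replicates were left out, the highest without pplCoA replicate 1. The cause was not tested. Without thinning, Htr2c was detected in 34.7% of glutamatergic and 52.7% of GABAergic neurons, and at 1000 UMIs in 29.2% of GABAergic neurons, as fewer UMIs detect fewer nuclei. The pathway count in glutamatergic neurons ran from 5 to 16 and in GABAergic neurons from 1 to 3 when replicates were left out, and was 0 in GABAergic neurons with library 1 of aplCoA replicate 1 alone. Over all genes, calls in glutamatergic neurons were 2059 and ran from 883 to 2419 when replicates were left out, with 3156 at a minimum of 10 UMIs and 3484 with no filter, and in GABAergic neurons were 912, from 237 to 866, 184 with library 1 alone and 1501 with no filter. Meis2 nuclei (9) and Pvalb nuclei (29) were too few for a fit and were not run.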
